A study of Caenorhabditis elegans with 24 samples.

Results

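Transcript levels in zip-2 mutants of Caenorhabditis elegans were compared with those in the wild-type strain N2, both fed. The comparison rests on 6 of the 24 libraries of the series, chosen by their labels: 3 of fed zip-2(tm4248) animals and 3 of fed N2 animals. All were whole mid-L4 hermaphrodites, the last larval stage before adulthood, grown from synchronized L1 larvae on the Escherichia coli strain OP50 and frozen at once. Further libraries of the same series served for 2 checks: 3 each of fed efk-1(ok3609) and fed cep-1(gk138) mutants, and 3 each of zip-2(tm4248) and N2 animals kept for 8 h on plates without bacteria. The efk-1 gene encodes the kinase of translation elongation factor 2 and cep-1 the worm homolog of p53. The mutants are called zip2, efk1 and cep1 below. Each mutant strain carries 1 allele, so an effect of the named mutation and one of another difference between the strains cannot be told apart. The labels do not say whether the 3 libraries of a group came from separate cultures, so p-values measure the spread between these libraries, which may be technical.

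ZIP-2 is a basic leucine zipper (bZIP) transcription factor of the innate immune response of the worm. It is known for switching on infection response genes, above all irg-1, when animals eat Pseudomonas aeruginosa or when a toxin of this bacterium blocks translation elongation, and it acts with a second bZIP protein, CEBP-2. This response is known from the intestine, which also expresses many detoxification enzymes and efflux transporters. The libraries here came from animals on their standard food, and the labels name no pathogen.

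Values are CPM, counts relative to the library total scaled by the normalisation factor of the library. Adjusted p-values are those of edgeR's quasi-likelihood test, with Benjamini-Hochberg adjustment across 15871 tested genes. An adjusted p under 0.05 is a call, and log2 fold changes and differences are those of the same fit. Total counts were 17701901 to 20825159 in fed zip2 and 19550890 to 30266282 in fed N2. Log2 CPM values across genes correlated at 0.984 to 0.987 between fed zip2 libraries, at 0.969 to 0.982 between fed N2 libraries and at 0.956 to 0.984 between the strains. Markers of intestine (5 tested), hypodermis (4), body muscle (4), pharynx (4), neurons (6) and germline (5) were all present. None was called, where 1.13% of all genes tested were, and so few markers cannot show equal tissue content. In the same order, 2, 3, 4, 1, 2 and 4 of them had a log2 fold change below 0 against N2. The medians were -0.24 for body muscle and -0.21 for germline, and those of the other 4 tissues were -0.02 to 0.08. Embryonic markers summed to 0.172 to 0.289 CPM in fed zip2 and 0.201 to 0.295 CPM in fed N2. The efk-1 transcript averaged 38.1 CPM in fed zip2 and 8.31 CPM in fed efk1. The hypodermal markers, which change over the moulting cycle, summed to 236 to 446 CPM in fed zip2 and 139 to 393 CPM in fed N2, and the lowest sum was in N2 replicate 2.

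The transcript of zip-2 itself was present in the mutant. The gene lies on chromosome III at 832982 to 835814 of the plus strand (WBcel235). It had 148, 198 and 134 CPM in fed zip2, against 330, 245 and 266 CPM in fed N2, so that the groups did not overlap. The mean was 160 ± 33.7 CPM in fed zip2 and 281 ± 44.4 CPM in fed N2 (SD, n = 3 each), or 57% of the N2 level by the fit. The log2 fold change of -0.81 (SE 0.25) did not pass the test (adjusted p = 0.258). The counts are per gene and do not show whether the deleted stretch was read, so they neither match nor contradict the genotype label. In whole-animal RNA, fewer cells of a type and less RNA per cell cannot be told apart, here and in all that follows.

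Of the infection response genes, irg-2 was nearly absent from fed zip2 libraries. It had 0, 1 and 2 counts in fed zip2, against 19, 45 and 33 counts in fed N2. The ratio of pooled, scaled counts was 27.3 in favour of N2, with an exact 95% counting interval of 9.08 to 135. Its log2 fold change of -4.61 (SE 1.27) against N2 was not called (adjusted p = 0.116). Against the mean of fed efk1 and fed cep1, a comparison that uses no N2 library, the log2 difference of -5.57 was called (adjusted p = 0.0421). The call was lost in 8 of the 9 fits that left out 1 library, all but the one without cep1 replicate 1 (adjusted p of up to 0.334). Each fed efk1 library held 16 to 44 counts of irg-2 and each fed cep1 library 22 to 220. Each mutant alone was a comparator chosen after seeing the data. irg-2 was called against fed cep1 alone (log2 difference -6.30, adjusted p = 0.00921) but not against fed efk1 alone (-4.83, adjusted p = 0.17).

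The best-known ZIP-2 target, irg-1, was low in all fed animals. It had 0.687, 2.02 and 1.12 CPM in fed zip2, against 2.62, 4.83 and 1.72 CPM in fed N2, and the groups overlapped. The means were 1.28 ± 0.683 CPM in fed zip2 and 3.06 ± 1.60 CPM in fed N2 (SD, n = 3 each), and the log2 fold change was -1.28 (adjusted p = 1). Of 6 infection response genes tested, 0 were called against N2, where 1.13% of all genes tested were called in either direction. Their median log2 fold change was -0.29, and 4 of the 6 were below 0. The 7 such genes in the table summed to 777 to 934 CPM in fed zip2 and 962 to 1266 CPM in fed N2. The sum was 1193 to 1524 CPM in fed efk1 and 997 to 1507 CPM in fed cep1. In starved animals the sums of zip2 (293 to 619 CPM) and N2 (338 to 521 CPM) overlapped. These sums were not tested. The partner gene cebp-2 averaged 9.78 ± 1.03 CPM in fed zip2 and 7.80 ± 0.93 CPM in fed N2 (SD, n = 3 each) and was not called. Of 24 bZIP factors and of 13 genes of the PMK-1 p38 immune pathway, 0 were called, with median log2 fold changes of 0.08 and 0.03 against 0.006 for all genes.

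**Figure D1:**
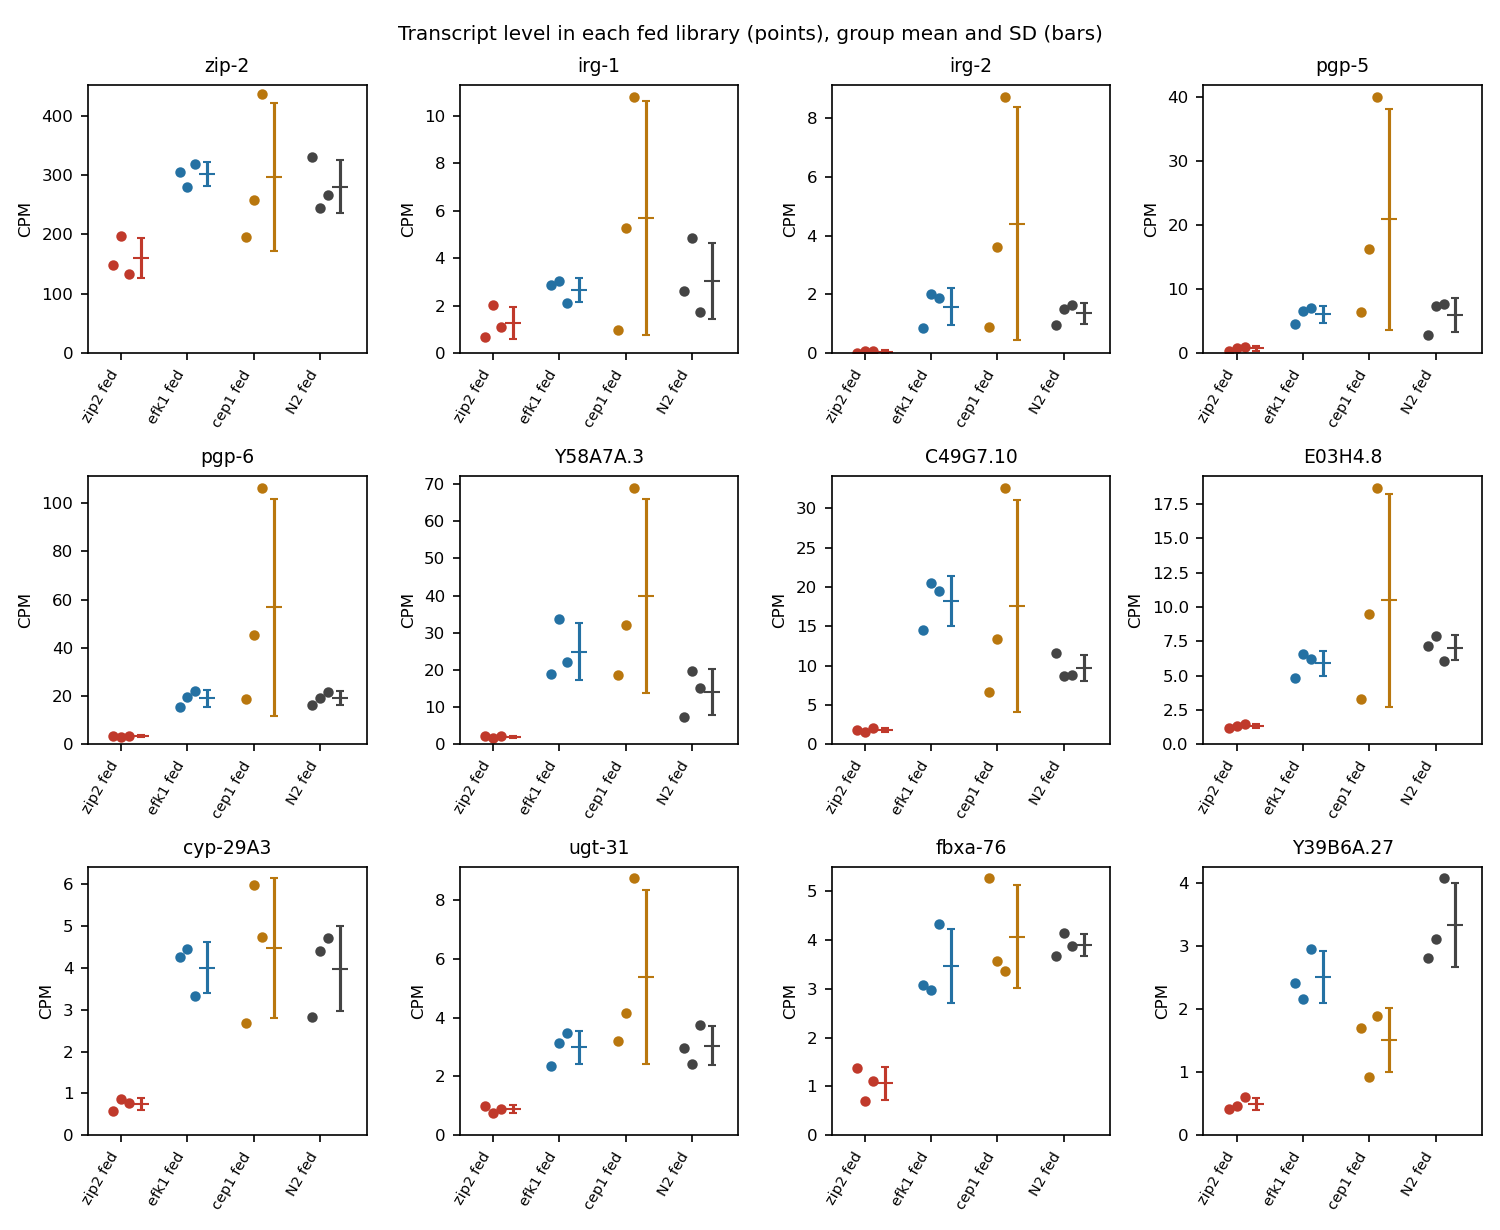
Levels in CPM (vertical axes, linear and starting at 0) of 12 genes in fed zip2, efk1, cep1 and N2 libraries. Points are the 3 libraries of a group, and bars give the mean and SD. For irg-2, pgp-5, pgp-6, Y58A7A.3, C49G7.10, E03H4.8, cyp-29A3, ugt-31, fbxa-76 and Y39B6A.27 each fed zip2 library lies below each library of the other 3 strains, and irg-1 overlaps. All but zip-2 and irg-1 were called lower against the mean of fed efk1 and fed cep1, so the separation follows in part from that choice. Its share over all genes tested was not counted.

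Across all genes, 179 of 15871 were called in fed zip2 against fed N2, 1.13%. Only 5 of them were higher in zip2 (0.0315%) and 174 were lower (1.1%). At an unadjusted p under 0.05 there were 136 higher and 379 lower genes. In each of the 174, all 3 zip2 libraries lay below all 3 N2 libraries, which was so for 6.37% of all genes at any p. In each of the 5, all zip2 libraries lay above all N2 libraries (5.48% of all genes at any p). The median log2 fold change of the 174 was -3.60, or -3.06 with the 57 genes whose 3 fed zip2 libraries held no more than 3 counts each set to the fold that 3 counts would give. Most had few reads: 89 had a mean below 1 CPM over the 24 libraries (mean log2 CPM under 0), and 11 had under 10 counts in a fed N2 library. In 166 of the 174 the fitted fold was at least 4. The number of lower genes depended on fed zip2 replicate 3 and on replicate 2: 62 were called lower without the first of these libraries and 82 without the second.

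**Figure D2:**
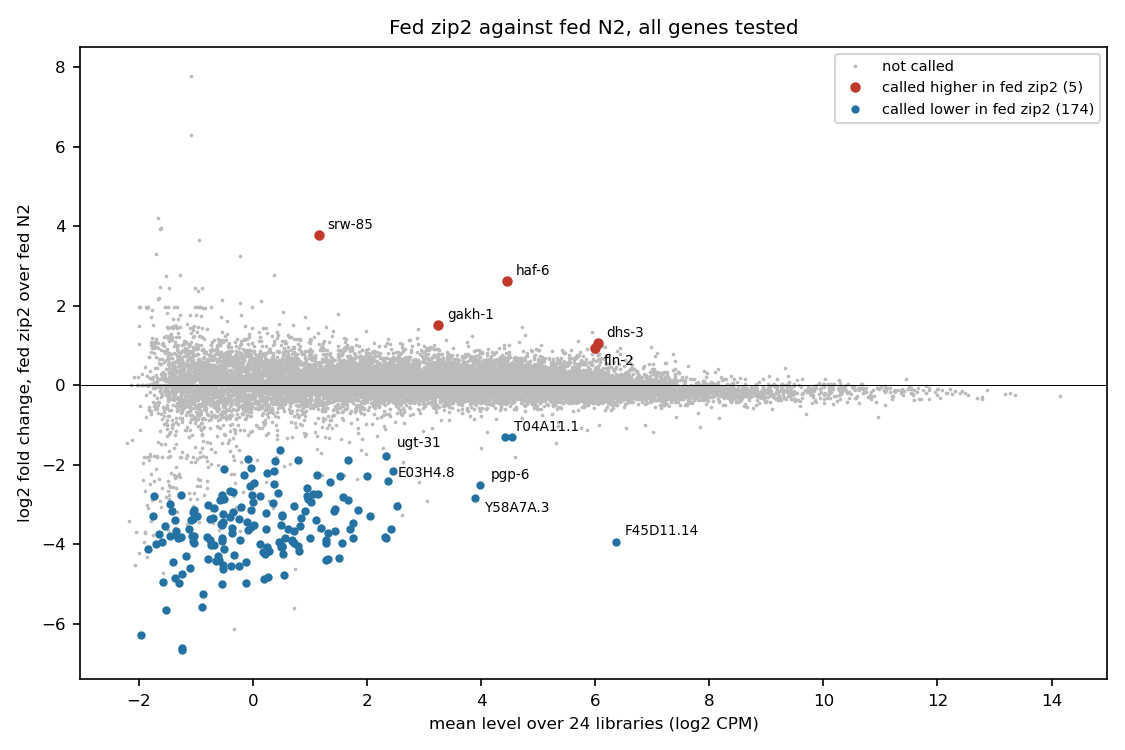
Log2 fold change of fed zip2 over fed N2 (vertical axis) against the mean level over 24 libraries in log2 CPM (horizontal axis) for the 15871 genes tested. The 174 genes called lower (blue) sit mostly at low mean levels, and the 5 called higher (red) are srw-85, haf-6, gakh-1, dhs-3 and fln-2.

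By their median, the 174 genes lay near the zip2 level in the other mutants. In 163 of the 174, all 3 fed N2 libraries lay above all 9 fed mutant libraries, as in 2% of all genes tested at any p. The 174 were called lower in zip2 than in N2, so the zip2 part of this follows from that choice. Of the 174 genes, 7 (4.02%) were also called lower in fed zip2 against the mean of fed efk1 and fed cep1, a comparison in which 0.132% of all genes were called lower. The 2 comparisons share the zip2 libraries. The median log2 difference of the 174 was -0.42 against the mean of efk1 and cep1. Set against N2, the same genes had a median log2 fold change of -3.26 in fed efk1 and -2.95 in fed cep1, comparisons that share the N2 libraries with that of zip2. The 167 lower genes without the second call are thus not shown to differ between zip2 and the other mutants.

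**Figure D3:**
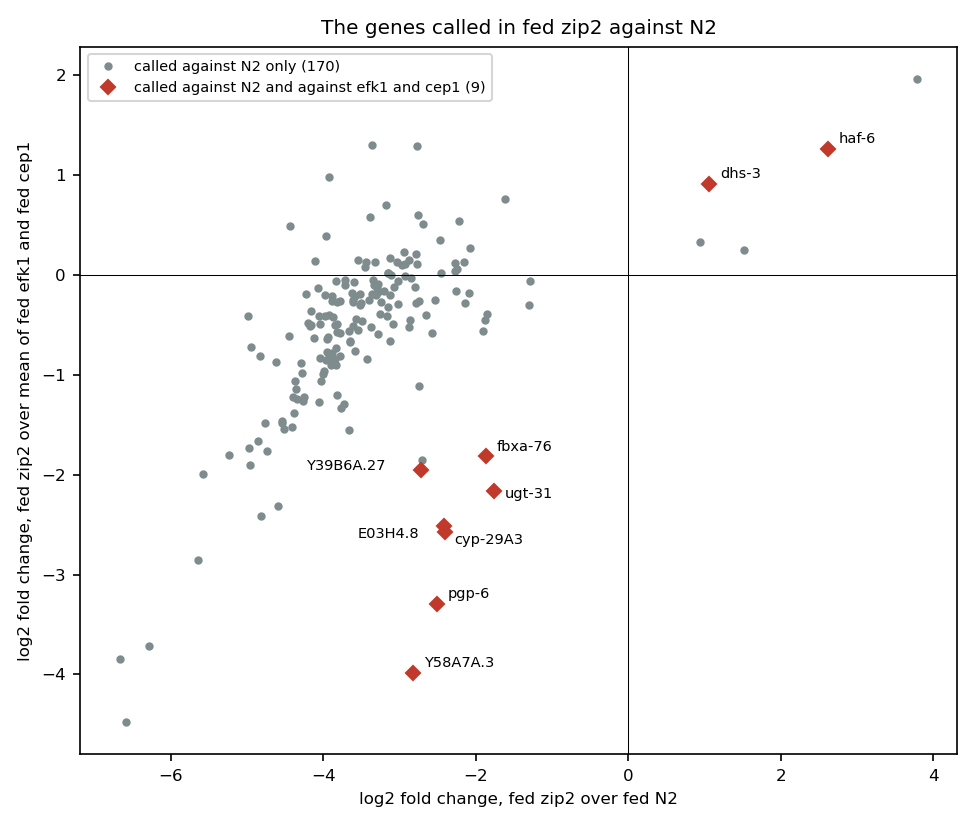
For the 179 genes called in fed zip2 against fed N2, the log2 fold change over N2 (horizontal axis) and over the mean of fed efk1 and fed cep1 (vertical axis). Grey points (170 genes) mostly lie near 0 on the vertical axis; red diamonds are the 9 genes called in both comparisons.

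The 7 genes lower in fed zip2 than in N2 and than in the mean of the other mutants were Y58A7A.3, pgp-6, E03H4.8, cyp-29A3, ugt-31, fbxa-76 and Y39B6A.27. Against fed cep1 alone all of these were called, and against fed efk1 alone all but pgp-6. Y58A7A.3, an uncharacterised gene on chromosome V (5077854 to 5080903, minus strand), had 2.12, 1.68 and 2.15 CPM in fed zip2, against 7.29, 19.8 and 15.1 CPM in fed N2. It had 18.9 to 33.6 CPM in fed efk1 and 18.6 to 68.9 CPM in fed cep1. The log2 fold change was -2.82 ± 0.65 (SE) against N2 (adjusted p = 0.0303) and -3.99 against the other mutants (adjusted p = 0.00383). The call against N2 was lost in 5 of the 6 fits that left out 1 library (adjusted p of up to 0.204), and that against the other mutants without zip2 replicate 2 (adjusted p = 0.0574).

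The gene pgp-6 encodes a P-glycoprotein, an ATP-binding cassette (ABC) transporter of the family that pumps foreign compounds out of cells. It had 3.49, 3.01 and 3.52 CPM in fed zip2, against 16.3, 19.1 and 21.9 CPM in fed N2, a log2 difference of -2.51 (SE 0.59, adjusted p = 0.0367). Its zip2 libraries lay close together and far below N2. Its log2 difference from the other mutants was -3.29 (adjusted p = 0.00844), and the call against N2 was lost in all 6 fits that left out 1 library (adjusted p of up to 0.225). The call against the other mutants was lost without any one of the zip2 libraries (adjusted p of up to 0.0976). pgp-6 was called against fed cep1 alone (log2 difference -4.08, adjusted p = 0.00129) but not against fed efk1 alone (-2.50, adjusted p = 0.0926). Next to it on the X chromosome (10871201 to 10877425 for pgp-6, 10854216 to 10859297 for pgp-5, both on the minus strand) lies the related pgp-5. It had 0.370, 0.868 and 1.03 CPM in fed zip2, against 2.92, 7.38 and 7.68 CPM in fed N2. That log2 fold change of -2.97 (SE 0.82) was not called (adjusted p = 0.122), while the difference of -3.88 from the other mutants was (adjusted p = 0.0346). That call was lost in 7 of 9 fits that left out 1 library (adjusted p of up to 0.326), including those without any one of the zip2 libraries, any one of the efk1 libraries or cep1 replicate 3. pgp-5 too was called against fed cep1 alone (log2 difference -4.77, adjusted p = 0.0054) but not against fed efk1 alone (-2.99, adjusted p = 0.214).

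Detoxification enzymes made up a further pair. For cyp-29A3, a cytochrome P450 on chromosome V, the level was 0.581, 0.868 and 0.772 CPM in fed zip2, against 2.82, 4.40 and 4.72 CPM in fed N2. Its log2 fold change was -2.42 ± 0.41 (SE, adjusted p = 0.00286) against N2 and -2.51 (adjusted p = 0.00257) against the other mutants. ugt-31, a UDP-glucuronosyltransferase on chromosome I, had 1.00, 0.752 and 0.901 CPM in fed zip2, against 2.97, 2.42 and 3.74 CPM in fed N2. The ugt-31 log2 fold change was -1.77 (adjusted p = 0.0112), a call lost without zip2 replicate 2 or 3 or N2 replicate 3 (adjusted p of up to 0.0966), and its difference from the other mutants was -2.17 (adjusted p = 0.00257). In both genes the fed zip2 libraries did not overlap those of any other fed strain. Another cytochrome P450, cyp-14A5, averaged 2.41 ± 0.183 CPM in fed zip2 and 9.13 ± 2.71 CPM in fed N2 (SD, n = 3 each) and missed the threshold (adjusted p = 0.0507). The families as a whole did not move with them: of 64 cytochromes P450, 61 UDP-glucuronosyltransferases and 40 glutathione transferases tested, 1, 1 and 0 were called lower and 0 higher, with medians of 0.20, 0.20 and 0.04. Over all genes tested, 1.1% were called lower and 0.0315% higher, with a median of 0.006.

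E03H4.8, on chromosome I, had 1.16, 1.33 and 1.46 CPM in fed zip2, against 7.14, 7.91 and 6.05 CPM in fed N2, 18.8% of the N2 level by the fit. The F-box gene fbxa-76, on chromosome III, had 1.37, 0.694 and 1.12 CPM in fed zip2, against 3.67, 4.14 and 3.89 CPM in fed N2. F-box proteins choose targets for ubiquitin ligases. Of 200 F-box genes tested 1, fbxa-76, was called, 0.5% where 1.13% of all genes tested were called. Y39B6A.27 on chromosome V had 0.423, 0.463 and 0.601 CPM in fed zip2, against 2.82, 3.11 and 4.08 CPM in fed N2. Its mean was 2.51 CPM in fed efk1 and 1.51 CPM in fed cep1. Y39B6A.27 was also called lower in fed cep1 against fed N2 (log2 fold change -1.14, adjusted p = 0.045), so a decrease from N2 was not particular to zip2. Log2 fold changes against N2 were -2.41 for E03H4.8, -1.87 for fbxa-76 and -2.73 for Y39B6A.27, with adjusted p of 0.00482, 0.00116 and 0.00051. Against the other mutants the log2 differences were -2.57, -1.81 and -1.95, all called. The call of E03H4.8 against the other mutants was lost without zip2 replicate 1 (adjusted p = 0.0628), and that of Y39B6A.27 without zip2 replicate 1 or 2 (adjusted p of up to 0.0942).

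Without N2 in the comparison, 44 genes differed between fed zip2 and the mean of fed efk1 and fed cep1, 0.277% of those tested. Of these, 21 were lower in zip2 (0.132%) and 23 higher (0.145%). The lower calls numbered 4, 5 and 7 without zip2 replicates 1, 2 and 3, 13, 13 and 12 without efk1 replicates 1, 2 and 3, and 39 without cep1 replicate 1. The higher calls numbered 12, 14 and 15 without zip2 replicates 1, 2 and 3. The 21 were chosen by this comparison, so their other values are described without a test. In 20 of the 21 the fitted level was also below N2, as in 49% of all genes tested. The 20 include gale-1 and tts-1, with log2 fold changes of -0.0057 and -0.046 against N2, and both comparisons use the same zip2 libraries. They included irg-2, pgp-5, pgp-6 and the 6 other genes above, and C49G7.10, C49G7.12, F14F9.4, catp-3, cyp-14A5 and parg-2. C49G7.10 had 1.75, 1.56 and 2.06 CPM in fed zip2, against 11.6, 8.64 and 8.86 CPM in fed N2, and just missed the threshold against N2 (log2 fold change -2.43, adjusted p = 0.0541). C49G7.12 averaged 0.191 ± 0.0544 CPM in fed zip2 and 1.44 ± 0.165 CPM in fed N2 (SD, n = 3 each). The 3 genes C49G7.12, C49G7.10 and irg-2 are neighbours on chromosome V, where they span 4038410 to 4039940 (plus strand), 4040409 to 4042021 (minus strand) and 4042181 to 4043601 (plus strand). Chromosome V held 11 of the 21 genes and 20% of all genes tested.

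Of the other genes in that group, catp-3, a subunit of a cation-pumping ATPase, averaged 5.998 ± 0.681 CPM in fed zip2 and 20.9 ± 2.87 CPM in fed N2 (SD, n = 3 each; adjusted p = 0.0902 against N2). The calls of catp-3 and C49G7.10 against the other mutants were lost without any one of the zip2 libraries (adjusted p of up to 0.0984 and 0.105). F14F9.4 averaged 0.442 ± 0.0484 CPM in fed zip2 and 3.16 ± 0.464 CPM in fed N2. parg-2, a poly(ADP-ribose) glycohydrolase, had 0, 0 and 1 counts in fed zip2, against 1, 15 and 14 counts in fed N2, and N2 replicate 1 lay far below replicates 2 and 3. Some of the 44 calls rest on the other mutants alone: gale-1 averaged 70.5 ± 7.86 CPM in fed zip2, 138 ± 4.91 CPM in fed efk1, 143 ± 3.70 CPM in fed cep1 and 70.8 ± 12.9 CPM in fed N2. Among the higher genes, cope-1 averaged 95.2 ± 6.97 CPM in fed zip2, 8.40 ± 0.616 CPM in fed efk1, 75.2 ± 5.33 CPM in fed cep1 and 88.3 ± 0.0362 CPM in fed N2. Fed cep1 libraries differed widely in pgp-6, with 106 CPM in replicate 3 and 18.7 CPM in replicate 1.

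The 5 genes higher in fed zip2 than in fed N2 were haf-6, srw-85, gakh-1, dhs-3 and fln-2. haf-6, an ABC half-transporter known to be needed for efficient RNA interference, had 42.3, 42.1 and 47.1 CPM in fed zip2, against 7.74, 5.76 and 7.93 CPM in fed N2. This is a log2 difference of 2.62 (SE 0.22, adjusted p = 1.48e-06), the smallest adjusted p of the comparison. Fed efk1 libraries had 39.9 to 46.6 CPM and fed cep1 libraries 6.88 to 8.26 CPM. The level in zip2 was thus near that of efk1, with a log2 difference of -0.011 between them, and the call against the mean of both other mutants (log2 difference 1.26, adjusted p = 0.000886) rests on cep1.

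The level of srw-85, a seven-transmembrane chemoreceptor, was 3.86, 3.70 and 5.45 CPM in fed zip2, against 0.453, 0.166 and 0.345 CPM in fed N2 (log2 difference 3.79 with SE 0.59, adjusted p = 0.0016). In fed efk1 it was 5.57 to 9.54 CPM and in fed cep1 at most 0.243 CPM. gakh-1, the worm relative of cyclin G-associated kinase, averaged 13.7 ± 0.744 CPM in fed zip2, 15.4 ± 0.956 CPM in fed efk1, 8.61 ± 1.07 CPM in fed cep1 and 4.77 ± 1.46 CPM in fed N2 (SD, n = 3 each). The filamin gene fln-2 averaged 78.5 ± 8.84 CPM in fed zip2, 92.9 ± 5.08 CPM in fed efk1, 41.9 ± 6.13 CPM in fed cep1 and 40.9 ± 4.29 CPM in fed N2. Its call against N2 (log2 difference 0.94 with SE 0.23, adjusted p = 0.0477) was lost in all 6 fits that left out 1 library (adjusted p of up to 0.26).

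dhs-3 differed from these in its pattern. It encodes a short-chain dehydrogenase found on intestinal lipid droplets. It had 128, 165 and 155 CPM in fed zip2, against 67.6, 75.9 and 71.5 CPM in fed N2 (log2 difference 1.06 with SE 0.18, adjusted p = 0.00289). Fed efk1 libraries had 80.1 to 84.97 CPM and fed cep1 libraries 64.0 to 95.5 CPM, all below the lowest zip2 library. The log2 difference from the mean of the other mutants was 0.91 (SE 0.15, adjusted p = 0.00575), a call lost without zip2 replicate 2 or 3 (adjusted p of up to 0.0763).

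**Figure D4:**
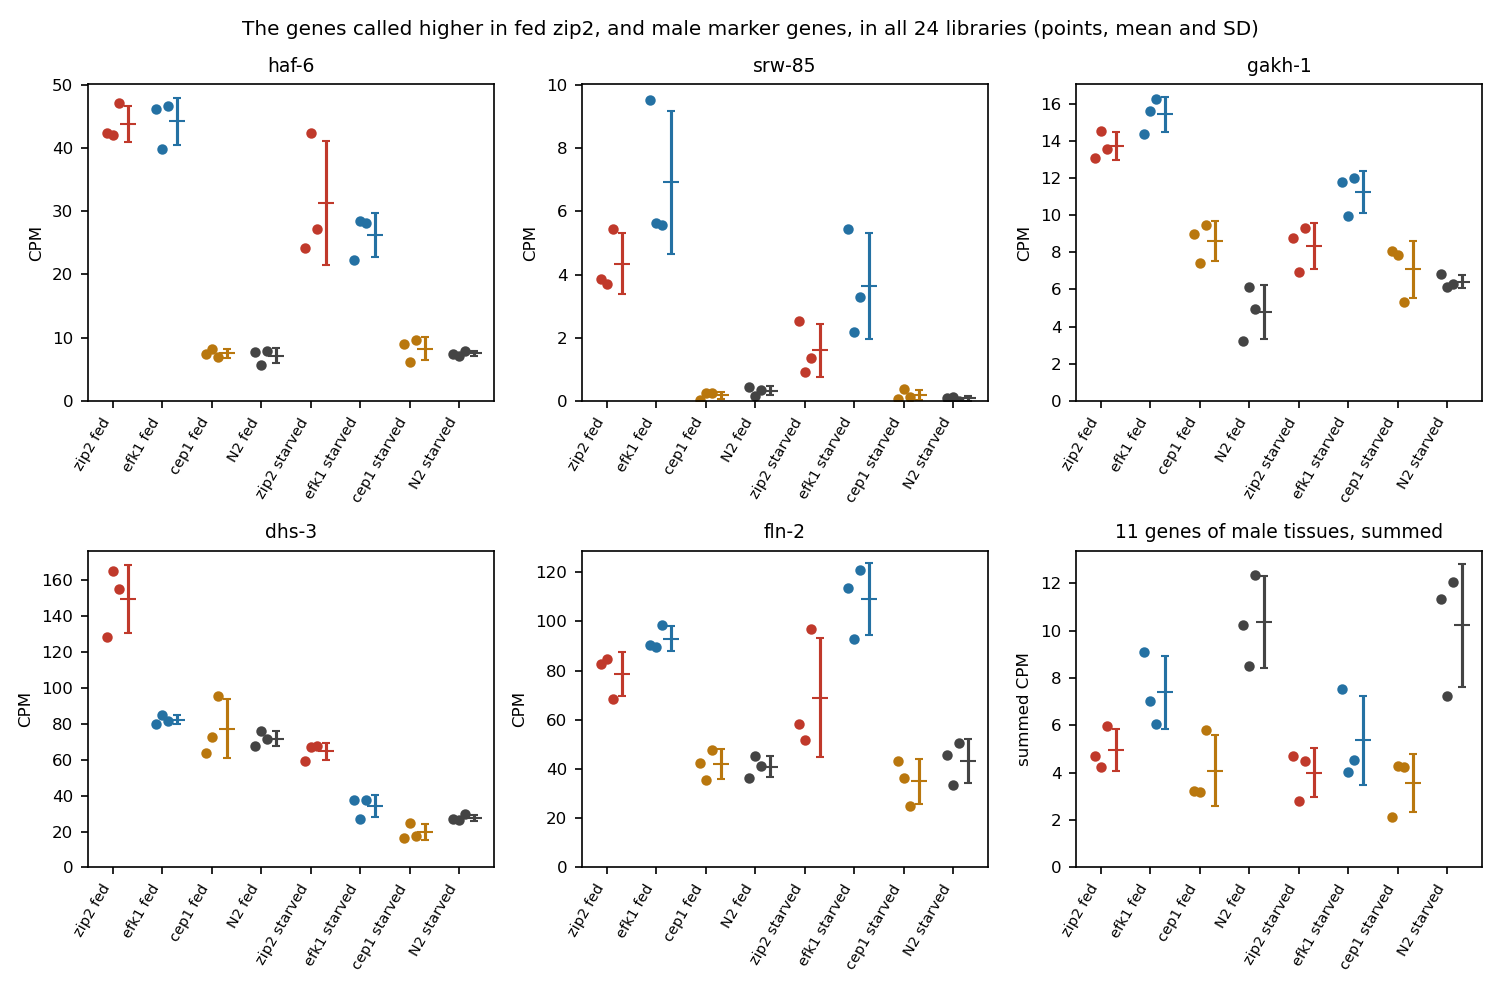
Levels in CPM (vertical axes, linear and starting at 0) in all 24 libraries of the 5 genes called higher in fed zip2, and the summed CPM of 11 genes of male tissues. Points are libraries, and bars give the mean and SD. haf-6, srw-85 and fln-2 are high in zip2 and efk1 and low in cep1 and N2; dhs-3 is highest in fed zip2 among fed strains.

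C-type lectins, secreted sugar-binding proteins of which several take part in defence, had more members among the lower genes than any other family list used here. In all, 112 of the 174 lower genes have only clone-form names and were not assigned to families by name. Of 237 in the table, 169 passed the filter on low counts, and of these 30 were called lower (1.1% of all genes were) and 0 higher. The 30 became 17 without zip2 replicate 2, 11 without zip2 replicate 3, 18 without N2 replicate 3 and 12 with a replicate block in the groups compared. The filter passes a gene on its level in any group of the series, so a member that is low in every group is not among the 169. The median over the 169 was -0.16, against 0.006 over all genes. Summed over the family, the level was 4715, 5741 and 4346 CPM in fed zip2, against 5937, 5663 and 5542 CPM in fed N2, and these ranges overlap. The 30 called members thus carried few of the family's reads: their means ran from 0 to 1.11 CPM in fed zip2 and from 0.288 to 13.5 CPM in fed N2, with log2 fold changes of -5.65 to -1.61.

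The called lectin with the most reads, clec-197, had 1.69, 1.33 and 0.300 CPM in fed zip2, against 10.7, 10.99 and 18.8 CPM in fed N2. clec-219 had 0.952, 0.405 and 0.515 CPM in fed zip2, against 6.79, 8.04 and 12.01 CPM in fed N2, a log2 difference of -3.83 (SE 0.61, adjusted p = 0.00176). The neighbours clec-207 and clec-208 on chromosome V averaged 0.481 ± 0.334 and 0.920 ± 0.128 CPM in fed zip2, against 7.46 ± 2.51 and 8.05 ± 1.90 CPM in fed N2 (SD, n = 3 each). None of these 4 was called against the other mutants, where their log2 differences were -0.41 to -0.06. Fed efk1 averaged 0.639 CPM and fed cep1 0.640 CPM of clec-219. The call of clec-197 was lost without zip2 replicate 2 or 3 or N2 replicate 3 (adjusted p of up to 0.153), and that of clec-207 without zip2 replicate 3 (adjusted p = 0.0557).

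Other families of small secreted proteins had called members in the same direction, where 1.1% of all genes tested were called lower. Of 13 SCP-like genes (secreted proteins of the CAP family) tested, 4 were called lower: scl-7, scl-8, scl-9 and scl-15. scl-8 had 4, 2 and 3 counts in fed zip2, against 35, 83 and 57 counts in fed N2, a log2 difference of -3.96 (SE 0.57, adjusted p = 0.000943). Of 28 fungus-induced peptide genes 5 were called lower, among them fipr-20 with a mean of 0.197 ± 0.131 CPM in fed zip2 and 3.38 ± 0.924 CPM in fed N2 (SD, n = 3 each). The calls of scl-7, scl-9 and scl-15 were each lost without zip2 replicate 3, among other fits that left out 1 library (adjusted p of up to 0.174, 0.0628 and 0.23), those of scl-8 and fipr-20 in none. Neither family had a member called higher, and their medians were -0.48 and -0.26. Against the mean of fed efk1 and fed cep1, 0 members of either family were called, with median log2 differences of -0.16 and 0.23.

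Among proteases, 3 of 30 astacin metalloproteases (nas-17, nas-19 and nas-24) and 2 of 9 trypsin-like proteases (try-8 and try-9) were called lower, where 1.1% of all genes tested were. nas-17 had 4, 2 and 5 counts in fed zip2, against 39, 138 and 73 counts in fed N2, with a log2 difference of -4.16 (SE 0.57, adjusted p = 0.000645). try-8 had 1.43, 0.810 and 0.601 CPM in fed zip2, against 12.2, 14.96 and 13.1 CPM in fed N2. Of 155 cuticle collagens tested, the structural proteins of the worm's outer coat, 1 was called lower (0.645%). With 1 call, this share cannot be told apart from that of all genes. The collagens had a median log2 fold change of -0.16, against 0.006 over all genes. Most of them were below 0, where 49% of all genes tested were. The called collagen, col-132, had 5, 6 and 12 counts in fed zip2, against 35, 17 and 103 counts in fed N2. The calls of nas-24, try-9 and col-132 were lost without zip2 replicate 1, 2 or 3 or N2 replicate 3, and that of nas-24 also without N2 replicate 2 (adjusted p of up to 0.424, 0.147 and 0.783). Those of nas-17, nas-19 and try-8 were lost in no such fit.

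Among lower genes with at least 10 counts in every fed N2 library, the largest fitted folds belonged to genes with almost no reads in fed zip2. hpo-33 had 0 counts in every fed zip2 library, against 11, 17 and 13 counts in fed N2, and was at least 3.81-fold lower with each zip2 library set at 3 counts. Its neighbour on chromosome V, F28B1.2, had 0 counts in every fed zip2 library, against 11, 16 and 12 counts in fed N2, at least 3.63-fold lower by the same floor. C35B1.3 had 1, 0 and 0 counts in fed zip2, against 15, 39 and 24 counts in fed N2, a pooled ratio of 65.9 in favour of N2 with a 95% counting interval of 11.5 to 2636. For T26A8.3, with 3, 2 and 1 counts in fed zip2, against 53, 112 and 61 counts in fed N2, the ratio was 31.8 with an interval of 14.4 to 87.6. The other 6 of the 10 genes with the largest fitted folds under that limit, F43C11.1, F28B1.9, clec-129, Y6G8.15, nas-19 and F49F1.9, had at most 3 counts in all fed zip2 libraries together and pooled ratios of 32.9 (F49F1.9) to 50.7 (F43C11.1). The calls of hpo-33, F28B1.2 and F43C11.1 were lost without zip2 replicate 3 (adjusted p = 0.0789, 0.067 and 0.0521). Those of F28B1.9 and Y6G8.15 were lost without zip2 replicate 2 or 3 (adjusted p of up to 0.0869 and 0.0983). The labels name no molecular identifiers, so these bounds and intervals cover counting error only.

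Of the lower genes with many reads, Y39B6A.9 had 3.12, 2.49 and 2.75 CPM in fed zip2, against 23.03, 18.3 and 26.7 CPM in fed N2 (log2 difference -3.02 with SE 0.49, adjusted p = 0.00206). Fed efk1 averaged 4.01 CPM and fed cep1 2.90 CPM. R01E6.5 was at 4.55, 4.34 and 4.59 CPM in fed zip2, against 24.2, 14.7 and 21.0 CPM in fed N2, a call lost in 5 of the 6 fits that left out 1 library (adjusted p of up to 0.183). Smaller differences were found in T04A11.1, at 13.5 ± 2.51 CPM in fed zip2 and 33.0 ± 2.93 CPM in fed N2, and Y71F9AL.4, at 15.7 ± 2.96 CPM in fed zip2 and 38.96 ± 6.64 CPM in fed N2 (SD, n = 3 each). F45D11.14 was irregular: it had 0, 0 and 38 counts in fed zip2, against 95, 397 and 193 counts in fed N2, and its call was lost in 8 of 13 alternative analyses, 4 of which left out zip2 replicate 1 or 2 or N2 replicate 2 or 3. Without zip2 replicate 3, where no zip2 count is left, its fitted log2 fold change was -10.62, against -3.93 with it.

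Markers of male tissues were mostly lower in fed zip2, though few passed the test. The 11 male genes in the table summed to 4.70, 4.22 and 5.97 CPM in fed zip2, against 10.3, 8.51 and 12.4 CPM in fed N2, and the groups did not overlap. Of the 7 that were tested, 1 was called lower and 0 higher, with a median log2 fold change of -1.30, and 4 had all zip2 libraries below all N2 libraries. Among all genes tested, 1.1% were called lower, and 6.37% had all zip2 libraries below all N2 libraries at any p. The called one, cwp-2, a gene of male-specific sensory neurons, had 1, 1 and 1 counts in fed zip2, against 13, 11 and 13 counts in fed N2, a call lost in 7 of 10 alternative analyses, 5 of which left out 1 library (adjusted p of up to 0.267). trf-1 had 4, 10 and 5 counts in fed zip2, against 20, 28 and 25 counts in fed N2. mab-3, with the most counts of the list in each fed N2 library, had 29, 22 and 75 counts in fed zip2. In fed N2 it had 100, 67 and 131 counts, and these counts overlap. cwp-4 went the other way, with 28, 23 and 29 counts in fed zip2, against 19, 40 and 21 counts in fed N2 (log2 fold change 0.28, adjusted p = 1). cwp-3 had no count in either group, and pkd-2 had 8, 2 and 4 counts in fed zip2, against 8, 28 and 8 counts in fed N2. The summed level was 6.07 to 9.10 CPM in fed efk1 and 3.20 to 5.81 CPM in fed cep1. What part male tissue had in the 174 lower genes was not tested.

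Genes of sperm, oocytes and yolk were not among the calls, which made up 1.13% of all genes tested. Of 29 major sperm protein genes, 50 other spermatogenesis genes, 12 oocyte genes and 6 vitellogenin genes tested, 0 were called, with medians of -0.30, -0.17, -0.34 and 0.08. In the same order, 29, 39, 11 and 3 of them had a log2 fold change below 0, where 49% of all genes tested did. The vitellogenins, yolk proteins made at the adult stage, summed to 11973, 14066 and 4864 CPM in fed zip2, against 7363, 13025 and 13716 CPM in fed N2, and varied as much within the strains as between them. No gene was called among 69 lysozymes, saposins and other antimicrobial genes, 19 pals genes of the intracellular pathogen response, 193 nuclear hormone receptors, 77 ribosomal proteins, 39 respiratory chain subunits, or among the 4 hsp-16 genes, 8 mitochondrial and 12 endoplasmic reticulum stress genes tested.

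The 174 lower genes lay on all chromosomes, with 45 on V (25.9%, against 20% of genes tested), 42 on II (24.1% against 17.8%), 29 each on I and IV, 16 on III and 13 on X. Of them, 88 had another lower gene within 25000 bases, and 54 fell in 15 runs of at least 3 such neighbours. The same was not counted over all genes tested. Whether the lower genes lie closer together than other genes was thus not tested. The longest run held 6 genes of the Y47D7A clone on chromosome V, between 4415965 and 4429676. Others were clec-136, clec-137 and clec-138 on chromosome II (4615574 to 4619800), fipr-18, fipr-19 and fipr-20 on chromosome III (7458815 to 7462395), and scl-7, scl-8, scl-9 and col-132 on chromosome IV (13047148 to 13091067). How the deposited counts shared reads between near-identical neighbours is not given in the sources used here, so single members of such runs are uncertain.

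The starved libraries gave the same strain comparison in 6 libraries that share none with the fed one. There 207 genes were called in zip2 against N2 (1.3%), 7 higher (0.0441%) and 200 lower (1.26%). The higher calls numbered 4 without starved zip2 replicate 2. Starved values are those of the fit of all 24 libraries without a replicate block, unless another fit is named. Starved libraries of one replicate number were treated as pairs only in the fits with a block. With a replicate block, a fit of the 6 starved libraries called 45 higher and 198 lower, against 3 higher and 145 lower in those libraries without the block, and a fit of all 24 libraries called 6 higher and 194 lower. Of the 174 genes lower in fed zip2, 159 were called lower in starved zip2 as well, which is 91.4% of the fed list and 79.5% of the starved list. Their median log2 fold change was -4.24 in starved animals, and 173 of the 174 were below 0. With the block, 150 of the 174 were called lower in the fit of 6 libraries and 158 in that of 24. Of the 5 higher genes, 3 were called higher in starved animals: haf-6 at 31.3 ± 9.76 CPM in starved zip2 and 7.54 ± 0.405 CPM in starved N2, srw-85 at 1.61 ± 0.843 CPM in starved zip2 and 0.0792 ± 0.0705 CPM in starved N2, and dhs-3 at 64.6 ± 4.85 CPM in starved zip2 and 27.6 ± 1.78 CPM in starved N2 (SD, n = 3 each). With the block in the 6 starved libraries fln-2 was called higher as well (log2 fold change 0.64, adjusted p = 0.0146).

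The 7 genes that were lower in fed zip2 than in N2 and in the other mutants were all called lower in starved zip2 too, with the block as well. In the 6 starved libraries without the block, Y58A7A.3, pgp-6, cyp-29A3 and E03H4.8 were not called (adjusted p = 0.188, 0.198, 0.0965 and 0.118). pgp-6 averaged 1.56 ± 0.592 CPM in starved zip2 and 9.15 ± 7.09 CPM in starved N2, ugt-31 averaged 1.27 ± 0.163 CPM in starved zip2 and 6.98 ± 1.68 CPM in starved N2, and fbxa-76 averaged 0.831 ± 0.189 CPM in starved zip2 and 3.51 ± 0.402 CPM in starved N2 (SD, n = 3 each). pgp-5, uncalled against N2 in fed animals, had 5, 0 and 4 counts in starved zip2, against 49, 8 and 224 counts in starved N2, and was called there (log2 fold change -4.27, adjusted p = 0.0329). irg-2 had 1, 0 and 1 counts in starved zip2, against 11, 4 and 106 counts in starved N2 (adjusted p = 0.1). Of the 21 genes lower than in the other mutants, 9 were called lower in starved zip2 (4 in the 6 starved libraries without the block, 9 with it), where 1.26% of all genes were, and 17 were below 0, where 44.9% of all genes were.

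Whether a difference between zip2 and N2 itself differed with food was tested as the interaction of strain and food. By edgeR's quasi-likelihood test 0 genes were called (0%), and 195 had an unadjusted p under 0.05; DESeq2 also called 0. With 0 calls the differences between fed and starved animals that follow are values only. F45D11.14 had a log2 fold change of -3.93 in fed and 0.006 in starved animals, col-132 of -2.66 and -0.33, T04A11.1 of -1.29 and -0.36, and gakh-1 of 1.52 and 0.38. catp-3 averaged 11.08 ± 4.72 CPM in starved zip2 and 12.2 ± 5.95 CPM in starved N2 (SD, n = 3 each).

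**Figure D5:**
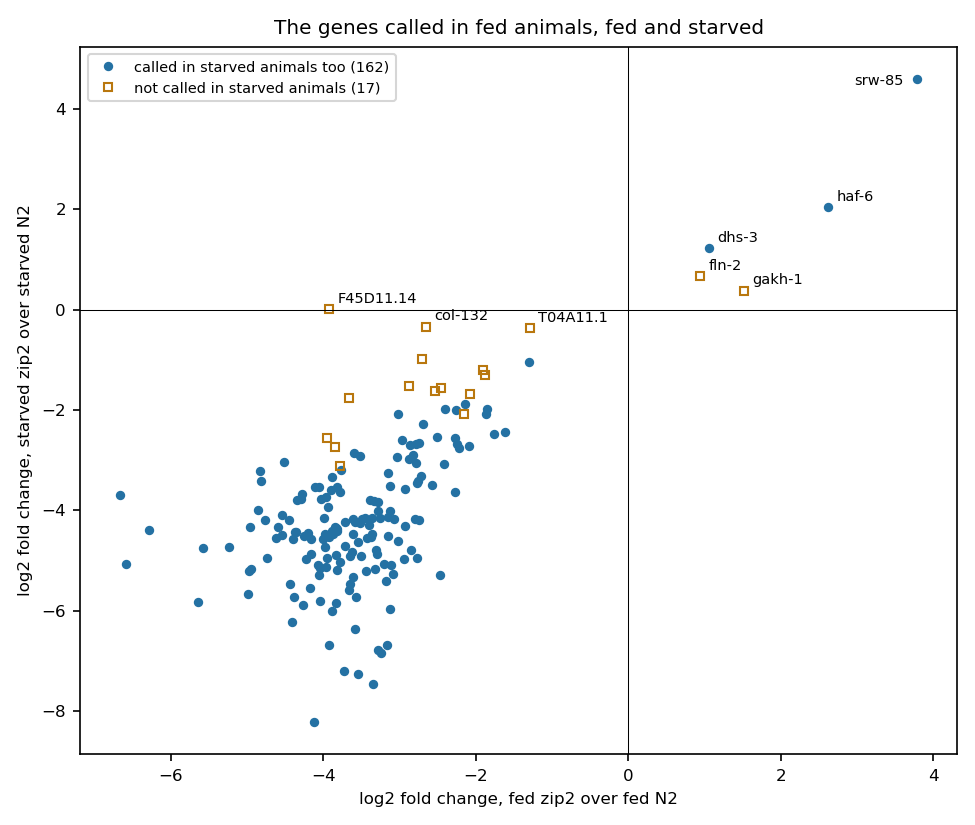
For the 179 genes called in fed zip2 against fed N2, the log2 fold change in fed animals (horizontal axis) and in starved animals (vertical axis). Filled points are the 162 genes called in starved animals too and open squares the 17 that were not; F45D11.14 lies at 0.006 on the vertical axis.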

How the data were processed

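The authors deposited 1 table of estimated counts per gene for all 24 libraries, with 43800 gene names, 11 of which had been turned into dates. Trimmomatic 0.36, Salmon 0.9.1, edgeR and the build WBcel235 are named by the submitters' processing notes, without roles. Libraries were strand-specific, per the labels' protocols. Estimated counts were rounded to whole numbers. Genes passing edgeR's filter (minimum count 10, minimum total 15, on the 8 groups) were fitted in edgeR 4.0.16 (R 4.3.3) with TMM factors and a robust quasi-likelihood model with 1 mean per group over all 24 libraries, which left 16 residual degrees of freedom and a common biological variation of 29.0% between libraries of a group. The steps were tested on simulated data. Of the names, 41521 matched an Ensembl release 115 gene and 1256 more a RefSeq locus tag, both of WBcel235; coordinates come from these.

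The groups and replicate numbers come from the titles. In starved animals, same-numbered zip2 and N2 libraries deviated together (correlations 0.538, 0.693 and 0.647), so the numbers were taken to pair them. The members, the gene lists and the tests were chosen with earlier results of these data known. Named genes were the study's genes and irg-1, irg-2 and cebp-2, all genes called higher, the 10 lower genes of largest fold with at least 10 counts in every fed N2 library, the 8 lower genes of highest level, those called in the same direction against the other mutants, up to 4 called members per list by level, and up to 5 of the largest differences from the other mutants each way. The other infection response genes, C49G7.12, F14F9.4, parg-2, cyp-14A5, gale-1, trf-1, mab-3, cwp-3, cwp-4, tts-1, pkd-2 and the genes of the positional runs were named after their values were seen. Alternatives were RLE factors, no filter, DESeq2 1.42.0, other sets of libraries, replicate blocks and leaving out each library.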

Additional observations from a re-analysis of the deposited data

How the results depend on the processing

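Against 179 genes called in fed zip2 against N2, leaving out 1 library gave 67 (without zip2 replicate 3) to 154, DESeq2 197, RLE factors 187, no filter 181 and the 12 fed libraries 171. The zip-2 log2 fold change ranged from -0.99 to -0.67 over these fits and was never called. Called list members numbered 52, and 20 to 44 with 1 library left out; called named genes 45, and 23 to 40. Same-number correlations of fed zip2 and N2 were -0.02, 0.23 and 0.40, and different-number ones -0.35 to 0.15. Whether the numbers pair the fed libraries was thus not settled. A fit of only the groups compared called 169 genes without a replicate block. With a replicate block in a fit of only the groups compared, 110 genes were called, 8 higher and 102 lower, of which 95 are among the 179, and 34 list members; with a block over 24 libraries, 170 genes. Against the mean of efk1 and cep1, 44 calls became 96 with DESeq2, 72 with a replicate block in the groups compared, and 16 (without zip2 replicate 1) to 59 (without cep1 replicate 1) with 1 library left out. Comparators chosen after seeing the data gave 24 calls (mean of the 3 other fed strains), 271 (cep1 alone) and 48 (efk1 alone); there haf-6 turned to -0.011 against efk1 and efk-1 to -0.61 against cep1. Starved calls, 207, were 145 to 212 with 1 library left out and 243 with the block in the groups compared (45 higher), against 148 in those groups without it (3 higher) and 200 with a block over 24 libraries. The interaction had 0 calls in all alternatives run. The causes were not tested. Of the 45 named genes called against N2, 22 were called in every fit that left out 1 library; of the 19 called against the other mutants, 8 were. Low counts limit precision: for 57 of the 174 lower genes, no fed zip2 library held more than 3.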
